A study of Triticum aestivum with 36 samples.

Results

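The avenin-like seed proteins of wheat were represented by 14 of the 61290 probe sets on the array. Of these, 13 were taken because the study's annotated list of 236 probe sets gave them a function with the word avenin, and 4 because the array's annotation names their gene ALP (3 of the 4 were in both). The study had chosen the probe sets of that list on these same arrays because their signal in good and poor varieties differed by a factor of 10 or more, and all 13 members passed that size at 7 days after anthesis (DAA), so their difference at 7 DAA is given as a description and is not independent evidence. Only Ta.27777.1.S1_at came from the annotation alone. RNA from whole developing seeds of 4 Indian bread wheat varieties, C306 and Lok1 (called good here for the quality of their chapatti, a flat bread made without yeast) and Sonalika and WH291 (called poor), was hybridized to 36 Affymetrix Wheat Genome Arrays. Each variety was sampled at 7, 14 and 28 DAA with 3 biological replicates from field-grown plants, whose main spikes were tagged at anthesis. No group carried a treatment, and since each quality class rests on 2 varieties, replicate arrays measure the spread within a variety but not that among varieties of a class.

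Avenin-like proteins are relatives of the gliadins and of the avenins of oat, and like them are stored in the starchy endosperm, the tissue that fills the grain with starch and gluten protein. They are small and rich in cysteine, an amino acid that links protein chains through disulphide bonds. The b type holds extra cysteines and can join the glutenin polymers that give dough its strength, whereas the a type resembles the single-chain gliadins.

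The 14 probe sets fell into 5 groups by annotation. ALP (LOC100125692, chromosome 4A, synonyms avnlb and ALPb-4A1 to ALPb-4A4) encodes a b-type protein and had 4 probe sets, Ta.27712.1.S1_at, Ta.27777.1.S2_at, Ta.27777.1.S2_s_at and Ta.27777.1.S1_at. LOC542894 on chromosome 7D had Ta.2448.1.S1_at, which the study calls an avenin-like protein, as it does Ta.9799.1.S1_at, for which the annotation gives no gene. LOC780582 on 7D (avnla, LMGli2482) is an a-type gene and had the member Ta.905.2.S1_at (avenin-like a1), and TaAffx.42864.3.S1_x_at (avenin-like a6) carries the same UniGene cluster number. LOC542895 (ALPb-7D), LOC542894 and LOC780582 lie close together in the RefSeq gene order of 7D, with 0 genes between LOC542895 and LOC542894 and 1 between LOC542894 and LOC780582, and LOC542895 had 0 probe sets. The remaining 6 members, 4 of the Ta.2415 series and 2 of the Ta.23142 series, are called gliadin/avenin-like seed proteins. The ending _s_at marks a probe set shared by several genes, _a_at one shared by transcripts of a gene, and _x_at one with probes that also resemble other transcripts, so that 6 of the 14 members, those ending in _s_at or _x_at, may read more than 1 gene.

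Values are log2 signals that the authors normalized and centred on the median of the 36 arrays for each probe set, so a probe set can be compared between groups but its level cannot be set against that of another. Differences were tested with limma across the 60130 probe sets that passed a filter on low values, which all 14 members passed, and a probe set was called at a Benjamini-Hochberg adjusted p below 0.05. In these seeds fewer endosperm cells and less RNA per cell cannot be told apart.

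Some arrays stood apart. At the 113 to 195 probe sets that parted a pair of varieties at 28 DAA, the arrays labelled Lok1 7 DAA lay on their own variety's side at 18.5% to 38.1%, those of Lok1 14 DAA at 35.4% to 62.4% and those of WH291 14 DAA at 50.4% to 66.7%, against 69.0% to 97.5% in the other 5 groups at 7 and 14 DAA. This check takes the labels at 28 DAA as right, so it cannot tell a fault there from one at 7 or 14 DAA. All labels were kept. The median of 36 poly-A control probe sets, RNA added before labelling, was 0.62 to 1.26 on the C306 arrays at 7 DAA and -3.36 to -2.75 on the other 9 arrays of that stage. That of 9 bioB probe sets, a hybridization control, was 0.74 to 1.70 on the C306 arrays at 28 DAA and -3.58 to -2.53 on the other 9. Every comparison of C306 with another variety at these stages therefore also set such arrays apart. Stages within a variety differed too, given here as the middle array of each group. From 14 to 28 DAA bioB went from 0.02 to -3.05 in Lok1, 0.61 to -3.24 in Sonalika and 0.66 to -3.04 in WH291. In C306 it went from 0.75 to 1.10. From 7 to 14 DAA poly-A went from -3.30 to 1.43 in Lok1, -3.32 to 2.16 in Sonalika and -3.04 to 0.08 in WH291. In C306 it went from 0.77 to -1.20. The part of these controls in the results was not tested. The 18 histone probe sets of dividing cells had medians of 0.35 to 3.45 at 7 DAA and -4.17 to -2.91 at 28 DAA, and the 16 of embryo and aleurone -7.39 to -3.40 at 7 DAA and 0.22 to 0.76 at 28 DAA.

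**Figure D1:**
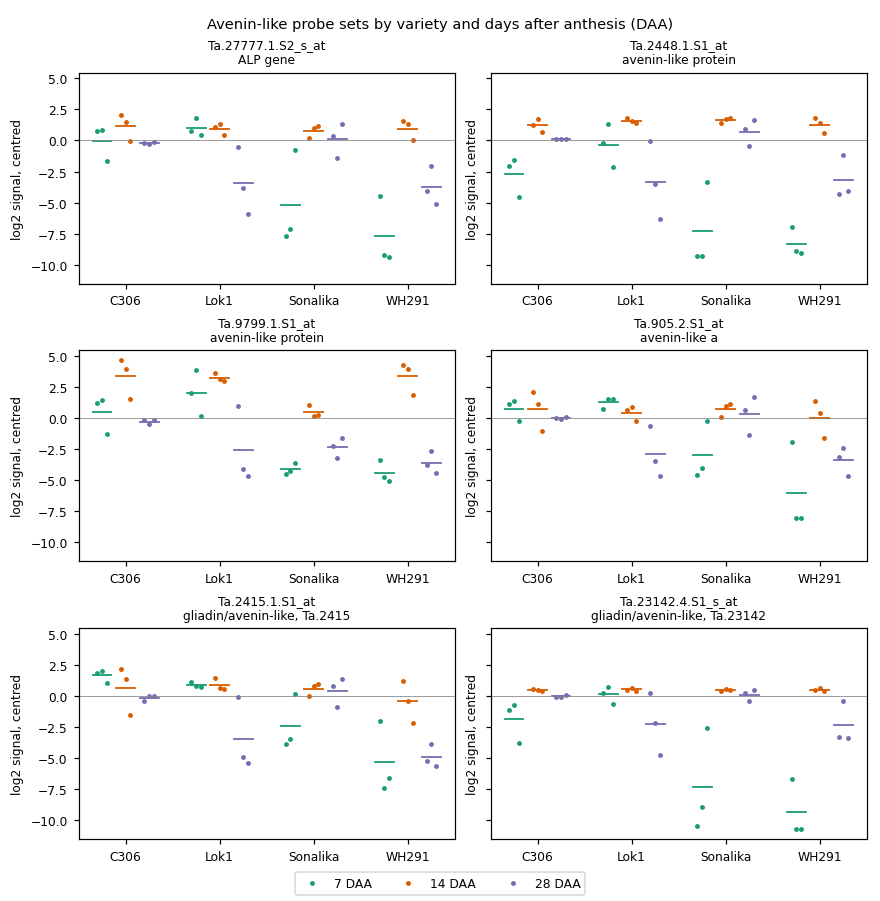
One probe set of each annotation group, with 2 for the avenin-like proteins of Ta.2448 and Ta.9799. The y axis is the centred log2 signal, the x axis the variety, points are arrays, horizontal lines are means of 3 arrays and colours are the stages in DAA. At 7 DAA the means of Sonalika and WH291 lie below those of C306 and Lok1 in every panel, and at 28 DAA those of Lok1 and WH291 lie below their own 14 DAA means.

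Of the 4 probe sets of ALP, Ta.27777.1.S2_s_at (avenin-like b1) had the widest range over the arrays. In C306 its signal was 0.79, 0.87 and -1.67 at 7 DAA, 2.05, 1.50 and -0.00 at 14 DAA, and -0.18, -0.30 and -0.14 at 28 DAA. In Lok1 it was 0.73, 1.80 and 0.44 at 7 DAA, 1.09, 1.33 and 0.44 at 14 DAA, and -0.50, -3.84 and -5.90 at 28 DAA. Within each good variety the 7 and 14 DAA arrays thus overlapped. Of these varieties, only in Lok1 did 2 of the 3 arrays lie far lower at 28 DAA. In Sonalika the values were -7.70, -7.11 and -0.80 at 7 DAA, 0.19, 1.01 and 1.14 at 14 DAA, and 0.34, -1.41 and 1.36 at 28 DAA. In WH291 they were -4.44, -9.21 and -9.41 at 7 DAA, 1.58, 1.30 and 0.00 at 14 DAA, and -4.05, -2.09 and -5.14 at 28 DAA. The poor varieties were low at 7 DAA except for replicate 3 of Sonalika, and all 4 varieties overlapped at 14 DAA. The correlations of Ta.27712.1.S1_at and Ta.27777.1.S2_at with Ta.27777.1.S2_s_at over the 36 arrays were 0.98 and 0.95.

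The fourth probe set of ALP, Ta.27777.1.S1_at, ran otherwise. Its signal in C306 averaged -1.04 ± 0.16 at 7 DAA, -0.21 ± 0.19 at 14 DAA and 0.57 ± 0.14 at 28 DAA (SD, n = 3), and in Lok1 -0.96 ± 0.29, 0.22 ± 0.26 and 0.44 ± 0.07 at 7, 14 and 28 DAA. In Sonalika it averaged -1.35 ± 0.31, 0.14 ± 0.08 and 0.56 ± 0.23 at these stages, and in WH291 -1.99 ± 0.11, -0.28 ± 0.10 and 0.42 ± 0.31. It was thus highest at the last stage in every variety, over a range of 2.82 between its lowest and highest array, against 6.43 to 11.9 for the other 13 members. At 14 against 7 DAA it rose by 0.83 in C306 (SE 0.17, adjusted p = 0.00078), 1.18 in Lok1 (adjusted p = 8.37e-06), 1.50 in Sonalika (adjusted p = 1.08e-07) and 1.72 in WH291 (adjusted p = 1.06e-08). At 28 against 14 DAA it rose by a further 0.78 in C306 (adjusted p = 0.00131) and 0.69 in WH291 (adjusted p = 0.00221), while the differences of 0.23 in Lok1 and 0.42 in Sonalika did not pass the test.

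**Figure D2:**
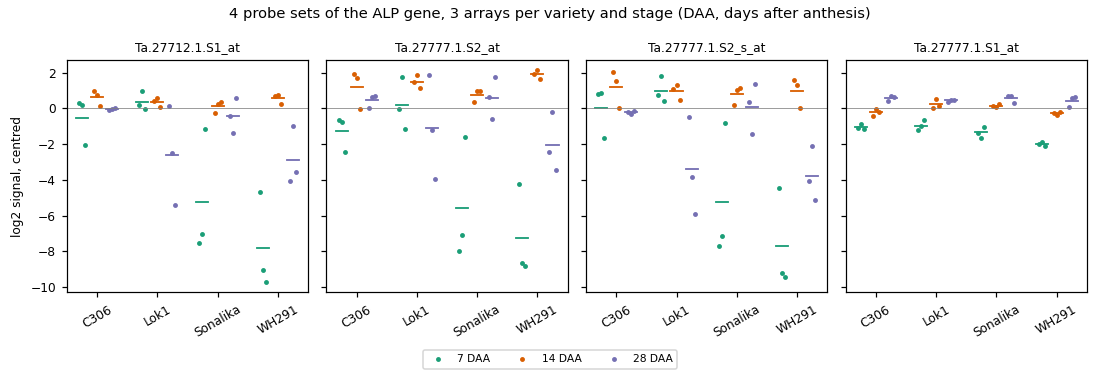
The 4 probe sets of the ALP gene on one scale. The y axis is the centred log2 signal, the x axis the variety, points are arrays, horizontal lines are means of 3 arrays and colours are the stages in DAA. In the first 3 panels the 7 DAA arrays of Sonalika and WH291 reach below -7 and the 28 DAA arrays of Lok1 and WH291 spread downwards, whereas all values of Ta.27777.1.S1_at lie between -2.12 and 0.70 and are lowest at 7 DAA.

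Ta.2448.1.S1_at, the avenin-like protein gene on 7D, read -2.02, -1.60 and -4.58 in C306 at 7 DAA, 1.23, 1.71 and 0.70 at 14 DAA and 0.08, 0.12 and 0.13 at 28 DAA. In Lok1 it read -0.18, 1.29 and -2.13 at 7 DAA, 1.79, 1.57 and 1.39 at 14 DAA and -0.08, -3.53 and -6.34 at 28 DAA. The 14 DAA arrays of both varieties thus lay above their later ones. In Sonalika it read -9.29, -9.29 and -3.34 at 7 DAA, 1.40, 1.69 and 1.79 at 14 DAA and 0.92, -0.46 and 1.63 at 28 DAA. In WH291 it read -6.99, -8.93 and -9.09 at 7 DAA, 1.78, 1.40 and 0.57 at 14 DAA and -4.31, -1.18 and -4.06 at 28 DAA. The 7 DAA arrays of the poor varieties were the lowest of all, replicate 3 of Sonalika again less so, while the 12 arrays of 14 DAA lay within 0.57 to 1.79.

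Ta.9799.1.S1_at had its highest group mean at 14 DAA in each variety, and its difference between 28 and 14 DAA was below that of every other member in each. At 14 DAA it read 4.69, 3.99 and 1.56 in C306, 3.65, 3.18 and 2.97 in Lok1 and 4.28, 3.93 and 1.86 in WH291, but 1.04, 0.18 and 0.24 in Sonalika. The 3 Sonalika arrays thus lay below all 9 others, although the differences from Sonalika, 2.93 in C306, 2.78 in Lok1 and -2.87 as Sonalika minus WH291, did not pass the test (SE 1.05, adjusted p = 0.109, 0.220 and 0.0920). At 28 DAA it averaged -0.27 ± 0.20 in C306 and -2.57 ± 3.12 in Lok1, with -2.34 ± 0.81 in Sonalika and -3.60 ± 0.89 in WH291 (SD, n = 3). It was also the member whose 7 DAA arrays parted most widely by class, -1.24 to 3.89 in the good varieties and -5.08 to -3.34 in the poor varieties. It was lower at 28 than at 14 DAA in C306 (-3.69, SE 1.05, adjusted p = 0.0132, a 12.9-fold fall), Lok1 (-5.84, adjusted p = 8.63e-05, 57.3-fold) and WH291 (-6.96, adjusted p = 7.01e-06, 124-fold), while in Sonalika the difference was -2.83 (adjusted p = 0.0638).

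TaAffx.42864.3.S1_x_at, avenin-like a6, read 2.47, 2.39 and -0.22 in C306 at 7 DAA, 3.43, 1.96 and -1.32 at 14 DAA and -0.40, -0.17 and 0.03 at 28 DAA. In Lok1 it read 1.71, 2.32 and 2.45 at 7 DAA, 1.55, 1.58 and 0.00 at 14 DAA and -1.11, -4.62 and -5.84 at 28 DAA. Replicate 3 of C306 was the low array at both 7 and 14 DAA. In Sonalika it read -5.76, -5.22 and -0.00 at 7 DAA, 0.49, 2.00 and 2.28 at 14 DAA and 1.44, -1.76 and 2.90 at 28 DAA. In WH291 it read -4.10, -7.24 and -6.58 at 7 DAA, 2.58, 0.38 and -1.99 at 14 DAA and -3.99, -4.12 and -6.05 at 28 DAA. Replicates spread widely, with an SD of 3.18 in Sonalika at 7 DAA, 2.43 in C306 at 14 DAA and 2.45 in Lok1 at 28 DAA. Ta.905.2.S1_at, avenin-like a1, followed it with a correlation of 0.96 over the 36 arrays and had a range of 10.1 against 10.7.

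Of the 4 probe sets of Ta.2415, Ta.2415.1.S1_at read 1.88, 2.04 and 1.05 in C306 at 7 DAA, 2.15, 1.36 and -1.53 at 14 DAA and -0.40, 0.02 and -0.02 at 28 DAA. In Lok1 it read 1.11, 0.83 and 0.75 at 7 DAA, 1.41, 0.64 and 0.59 at 14 DAA and -0.09, -4.88 and -5.38 at 28 DAA. In these varieties the stages of 7 and 14 DAA overlapped. In Sonalika it read -3.87, -3.46 and 0.16 at 7 DAA, -0.05, 0.83 and 0.94 at 14 DAA and 0.76, -0.86 and 1.37 at 28 DAA. In WH291 it read -2.00, -7.39 and -6.59 at 7 DAA, 1.21, -0.38 and -2.16 at 14 DAA and -5.27, -3.84 and -5.62 at 28 DAA. The WH291 arrays of 28 DAA thus lay below every Sonalika array of 14 and 28 DAA. Ta.2415.2.S1_a_at, Ta.2415.2.S1_x_at and Ta.2415.3.S1_x_at were at their highest in C306 at 7 DAA, with means of 2.82 ± 1.03, 2.79 ± 0.74 and 3.03 ± 0.62 (SD, n = 3). Ta.2415.1.S1_at was also highest there, at 1.66 ± 0.53, whereas the other 10 members had their highest group mean elsewhere.

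The Ta.23142 probe sets are named gliadin/avenin-like, although the array's number is shared with low-molecular-weight glutenin probe sets. Ta.23142.4.S1_s_at lay within 0.37 to 0.63 on all 12 arrays of 14 DAA, the tightest level of any member at any stage across varieties. At 7 DAA it averaged -1.88 ± 1.63 in C306 and 0.13 ± 0.70 in Lok1, with -7.31 ± 4.18 in Sonalika and -9.36 ± 2.33 in WH291 (SD, n = 3). At 28 DAA it averaged -0.02 ± 0.06 in C306 and -2.23 ± 2.47 in Lok1, with 0.08 ± 0.45 in Sonalika and -2.37 ± 1.67 in WH291. Ta.23142.11.S1_x_at followed it with a correlation of 0.99.

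When the 12 groups were ordered by mean, neighbours in the order overlapped in 9 to 11 of 11 places for the 13 listed members and in 8 of 11 for Ta.27777.1.S1_at. Few adjacent groups thus stood apart beyond their spread. Such an order sets the closest groups side by side, which favours overlap, so nothing is read from these counts about groups further apart. The SD of a member over 3 arrays had a median of 0.08 in C306 at 28 DAA but of 2.85 in Sonalika at 7 DAA and 2.60 in Lok1 at 28 DAA.

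Arrays that were high or low for one member tended to be so for the others, apart from Ta.27777.1.S1_at. Not every group followed this. C306 at 7 DAA had the highest group mean of Ta.2415.3.S1_x_at (3.03) but averaged -2.65 for Ta.23142.11.S1_x_at and -2.73 for Ta.2448.1.S1_at. Over the 78 pairs of members without Ta.27777.1.S1_at the correlation on 36 arrays was 0.53 to 0.99 (median 0.83), and over the 13 pairs with it -0.00 to 0.69. These points share arrays, stages and varieties, and all members but Ta.27777.1.S1_at were listed for a large difference on these arrays. On replicate 3 of Sonalika at 7 DAA the median of the 14 members was -0.91, against -5.17 and -4.73 on replicates 1 and 2, and on replicate 1 of Lok1 at 28 DAA it was -0.08, against -3.27 and -4.71. The median of 46 gliadin and glutenin probe sets, most of them also in the study's list, moved the same way on these arrays. So did that of 8 starchy endosperm markers (starch synthase, AGP, puroindoline and grain softness genes, 6 of which the study's list also holds). Their range over the 7 DAA arrays was -9.61 to 0.44 for the gluten genes and -3.66 to 1.88 for the endosperm markers, and at 28 DAA it was -4.12 to 1.03 and -4.31 to 0.54. The part of endosperm content in the results was not tested.

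**Figure D3:**
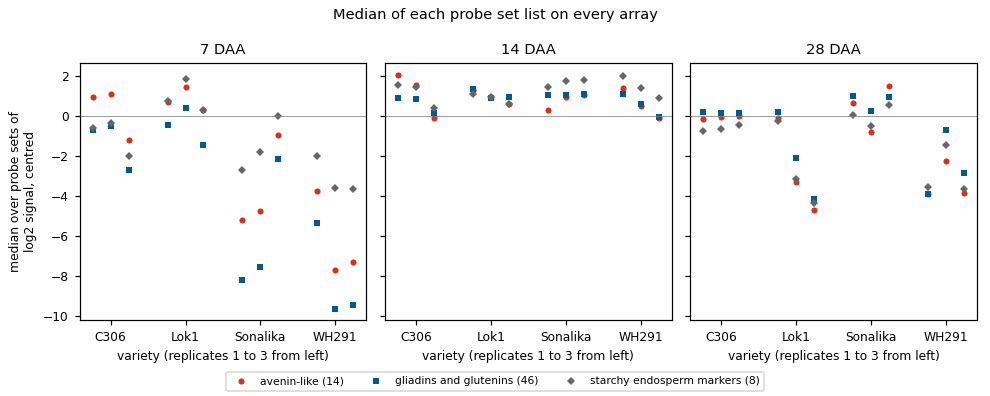
Median of the 14 avenin-like probe sets, of 46 gliadin and glutenin probe sets and of 8 starchy endosperm markers on each array, with 1 panel per stage. The y axis is the median centred log2 signal and the x axis the variety, with replicates 1 to 3 from left to right. The avenin-like and gluten medians are low on the 7 DAA arrays of Sonalika and WH291 other than replicate 3 of Sonalika, where the endosperm median (0.02) lies above those of the 3 C306 arrays. All 3 lists are low on replicates 2 and 3 of Lok1 at 28 DAA, and the avenin-like medians of 14 DAA lie between -0.10 and 2.07.

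Changes between stages were then compared within each variety. At 14 against 7 DAA, 2 of the 14 members were called higher in C306 (17.3% of all probe sets were called, 6.94% higher) and 1 in Lok1 (19.9% and 8.98%). The count was 10 for Sonalika (27.1% and 12.2%) and 12 for WH291 (28.6% and 12.3%), and 0 were called lower in any variety. The median difference was 0.98 in C306 and -0.02 in Lok1, and it was 4.93 in Sonalika and 7.02 in WH291. Since the study's list was chosen on the 7 DAA arrays of good and poor varieties alike, nothing is read from these counts and medians in any variety. After cyclic loess normalization the median was -1.42 in C306 and -1.12 in Lok1, below 0 in both good varieties, and 2.02 in Sonalika and 3.07 in WH291, with 5 members called in Sonalika and 7 in WH291. That normalization acted on centred values, so its fit could not follow the level of the signal and may take out changes with stage. Here and below, a call lost or a sign turned under it does not show which version is right. The second call in C306 was Ta.2448.1.S1_at (3.95, SE 1.27, adjusted p = 0.0300), which turned to -0.27 under that normalization and was lost without replicate 3 of 7 DAA or replicates 1 or 2 of 14 DAA. The gluten genes, of which 44 of 46 passed the filter, rose in 12 cases in C306 and 5 in Lok1. They rose in 43 in Sonalika and 44 in WH291. Most of them are also in the study's list, so nothing is read from these counts either.

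At 28 against 14 DAA, which leaves out the 7 DAA arrays, 9 of 14 members fell in Lok1 (27% of all probe sets were called, 12.9% lower) and 10 in WH291 (27% and 12.4%), where Ta.27777.1.S1_at rose. In C306 1 fell and 1 rose (17.5% called, 8.58% lower), and in Sonalika 0 were called (17.4%), with 2 at an unadjusted p below 0.05. The median difference was -3.43 in Lok1 and -3.45 in WH291, whereas it was -0.95 in C306 and -0.38 in Sonalika. The gluten genes fell in 24 of 44 cases in Lok1 (median -3.29) and in 24 in WH291 (-3.37), and in 1 case in C306 (-0.40) and 0 in Sonalika (-0.30).

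The members that fell in both Lok1 and WH291 came from every annotation group but Ta.23142. Avenin-like b1, by Ta.27777.1.S2_s_at, was 20.6-fold lower in Lok1 (-4.36, SE 1.38, adjusted p = 0.0177) and 26.4-fold lower in WH291 (-4.72, adjusted p = 0.00978). Ta.2448.1.S1_at was 29.9-fold lower in Lok1 (-4.90, SE 1.27, adjusted p = 0.00407) and 21.5-fold lower in WH291 (-4.43, adjusted p = 0.00877). Avenin-like a6 was lower by -4.90 in Lok1 (SE 1.41, adjusted p = 0.00945) and -5.04 in WH291 (adjusted p = 0.00734), and Ta.2415.1.S1_at by -4.33 (SE 1.24, adjusted p = 0.00879) and -4.47 (adjusted p = 0.00661) in these varieties. The other ALP probe sets, Ta.27712.1.S1_at and Ta.27777.1.S2_at, passed the test in WH291 alone, at -3.45 and -3.92 (adjusted p = 0.0442 and 0.0259), and the Ta.23142 differences of -2.74 to -3.38 in the 2 varieties did not pass it.

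Single arrays decided how many members were called. In Lok1 the count was 5 without replicate 2 of 28 DAA and 2 without replicate 3, but 13 without replicate 1, the array that stayed near its 14 DAA level. In WH291 it was 4 without replicate 1 of 14 DAA, 7 without replicate 2 of 14 DAA, 7 without replicate 1 of 28 DAA and 6 without replicate 3 of 28 DAA, and both varieties are compared here with 14 DAA arrays that lay less often than others on their own variety's side. In C306 it was 1 without replicates 1 or 2 of 14 DAA and 4 without replicate 3, and in Sonalika 1 without replicate 3 of 28 DAA. The change from 14 to 28 DAA was also compared between varieties. None of 84 tests over 6 pairs of varieties was called by limma (15 had an unadjusted p below 0.05, and the lowest adjusted p was 0.108), with 5 calls without replicate 1 of Lok1 at 28 DAA, so the falls in Lok1 and WH291 were not shown to differ from those in C306 and Sonalika. Over all probe sets 5.81%, 1.32% and 2.61% were called for C306 minus Lok1, Sonalika and WH291 in turn, 2.09% and 7.73% for Lok1 minus Sonalika and WH291, and 5.25% for Sonalika minus WH291.

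**Figure D4:**
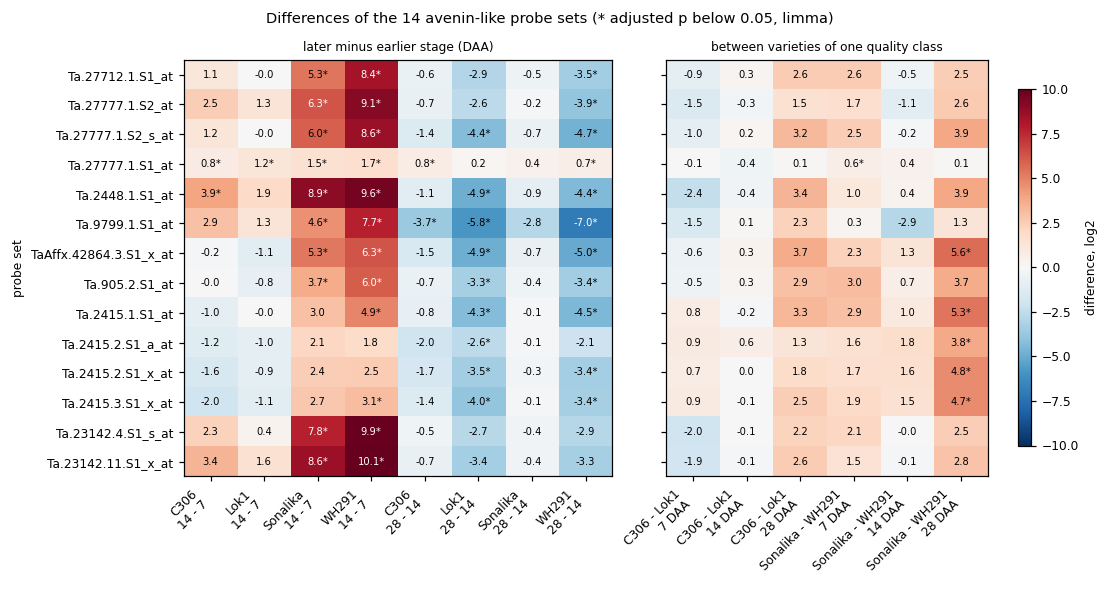
Differences of the 14 members in log2, later minus earlier stage in each variety (left) and between the 2 varieties of a quality class at each stage (right). Rows are probe sets, columns are comparisons, colour and number give the difference, and an asterisk marks an adjusted p below 0.05 with limma. The falls at 28 against 14 DAA stand in the columns of Lok1 and WH291, and Ta.27777.1.S1_at is the only row above 0 in all 8 stage columns.

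Within the good class, C306 and Lok1 did not differ in any member at 7, 14 or 28 DAA by limma (9.39%, 6.48% and 12.5% of all probe sets were called), with 0, 1 and 7 members at an unadjusted p below 0.05. The median difference, C306 minus Lok1, was -0.75 at 7 DAA and -0.01 at 14 DAA (0.56 and 0.60 after cyclic loess, so that both turned), and 2.53 at 28 DAA. At 28 DAA all 14 members were higher in C306, and 7 were called when replicate 1 of Lok1 was left out. So equality of these varieties was not shown.

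Within the poor class, 5 members were higher in Sonalika than in WH291 at 28 DAA (6.14% of all probe sets were called), all 4 of the Ta.2415 series and avenin-like a6. Ta.2415.1.S1_at averaged 0.42 ± 1.15 in Sonalika and -4.91 ± 0.94 in WH291 (SD, n = 3), a difference of 5.33 (SE 1.24, adjusted p = 0.00745). Ta.2415.2.S1_x_at averaged 1.07 ± 1.52 in Sonalika and -3.68 ± 0.27 in WH291 (4.75, SE 0.99, adjusted p = 0.0029), and avenin-like a6 0.86 ± 2.38 in Sonalika and -4.72 ± 1.15 in WH291 (5.58, SE 1.41, adjusted p = 0.0143). For each of these 3 the arrays of the 2 varieties did not overlap. The other 2 calls were Ta.2415.2.S1_a_at at 3.80 (adjusted p = 0.0118) and Ta.2415.3.S1_x_at at 4.72 (adjusted p = 0.00767). Only 2 of the 5 calls were left without replicate 1 or without replicate 3 of Sonalika. The other 9 members were also higher in Sonalika, by 0.15 to 3.88, without passing the test, and the gluten genes were called in 17 of 44 cases with a median of 3.67.

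At 7 DAA, Ta.27777.1.S1_at was the only member called between the poor varieties (11.4% of all probe sets were called). It read -1.40, -1.63 and -1.02 in Sonalika against -1.97, -1.89 and -2.12 in WH291, which did not overlap, a difference of 0.64 (SE 0.17, adjusted p = 0.0111). The call was lost after cyclic loess normalization (0.07), without replicate 3 of either variety and with the arrays of the 2 groups alone in the fit. Without replicate 1 of WH291, 5 members were called. At 14 DAA 0 members were called between these varieties (8.38%), with 2 at an unadjusted p below 0.05.

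The study asked which genes separate good from poor chapatti varieties. At 14 DAA, good minus poor differences of the members ran from -0.04 to 1.42 with a median of 0.19, and at 28 DAA from -0.37 to 1.55 with a median of 0.02. By limma 0 of 14 members passed the test at either stage, where 0.0233% and 2.18% of all probe sets were called. The count at an unadjusted p below 0.05 was 0 at both stages, the lowest adjusted p was 0.786 and 0.496, and the methods' own contrast, without limma's moderated variance, also called 0. The 6 good and the 6 poor arrays overlapped for all 14 members at both stages, where those of 0.614% and 1.72% of all probe sets did not overlap at 14 and 28 DAA. The widest difference at both stages belonged to Ta.9799.1.S1_at, 1.42 (SE 0.86) at 14 DAA and 1.55 (SE 0.86) at 28 DAA.

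The study's list required a difference of a factor of 10 or more on these arrays, in either direction and at any stage. At 7 DAA, where 12.9% of all probe sets were called, the 13 listed members were higher in the good varieties by 4.12 to 7.46. The smallest of these belonged to the Ta.2415 series (Ta.2415.2.S1_a_at, 4.12) and the greatest to the Ta.23142 series (Ta.23142.4.S1_s_at, 7.46), and ALP stood between at 5.85, 6.44 and 6.94 by its 3 listed probe sets. Even so, the good and poor arrays overlapped for 8 of the 14 members, as replicate 3 of Sonalika and replicate 3 of C306 lay nearer to the other class. The 6 members with no overlap were the 4 of Ta.2415, Ta.905.2.S1_at and Ta.9799.1.S1_at, and 2.68% of all probe sets had none at 7 DAA, from which nothing is read because the list was chosen there. Outside the study's list, Ta.27777.1.S1_at read -1.24 to -0.65 in the good varieties and -2.12 to -1.02 in the poor varieties, a difference of 0.67 (SE 0.16, adjusted p = 0.00366). It was 0.64 without the arrays labelled Lok1 7 DAA (adjusted p = 0.0347) and 0.30 after cyclic loess normalization (adjusted p = 0.346), where the call was lost.

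Setting each good variety against each poor variety gave 6 calls in 112 tests at 14 and 28 DAA, and they ran both ways. At 28 DAA Ta.2415.1.S1_at was higher in C306 than in WH291 by 4.78 (SE 1.24, adjusted p = 0.0179), where 5.48% of all probe sets were called. In Lok1 it was lower than in Sonalika (-3.87, SE 1.24, adjusted p = 0.0465), as were Ta.2415.2.S1_x_at (-3.42, adjusted p = 0.0259), Ta.2415.3.S1_x_at (-3.97, adjusted p = 0.0190), Ta.2448.1.S1_at (-4.02, adjusted p = 0.0439) and avenin-like a6 (-4.72, adjusted p = 0.0317), where 9.16% were called. So at 28 DAA a good variety was the higher one in one pair and the lower one in another, while C306 and Sonalika, and Lok1 and WH291, differed in 0 members (6.84% and 8.07%). At 14 DAA 0 of 56 tests were called, with 5 at an unadjusted p below 0.05 (5.55% and 3.62% of all probe sets were called for C306 minus Sonalika and minus WH291, and 2.4% and 5.86% for Lok1 minus these). The count of 6 was 12 without replicate 3 of C306 at 14 DAA or replicate 1 of Lok1 at 28 DAA, and 3 without replicate 2 or replicate 3 of C306 at 28 DAA. It was 2 without replicate 3 and 1 without replicate 2 of Lok1 at 28 DAA, and 1 without replicate 1 or replicate 3 of Sonalika at 28 DAA.

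Probe sets that share an annotated gene (ALP or LOC780582), a UniGene cluster or an array number (Ta.2415 or Ta.23142) were then set against each other. Those that share only a cluster or number may read different genes. The cluster holds avenin-like a1 and a6, and the Ta.23142 number also covers glutenin probe sets. Tests of probe sets of one gene, as named below, take in all these pairs. For 15 pairs from ALP, LOC780582 (with its partner Ta.905.2.S1_x_at, which is no member), the shared UniGene cluster, Ta.2415 and Ta.23142, the gap between the 2 probe sets on each array was compared between stages or classes with a two-sided permutation test, adjusted over the 60 tests. The change with stage differed in 8 of 15 pairs at 14 against 7 DAA and in 8 of 15 at 28 against 14 DAA, while the difference between good and poor varieties differed in 1 of 15 at 14 DAA and 0 of 15 at 28 DAA.

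The pairs of ALP with Ta.27777.1.S1_at disagreed in direction. Over the 4 varieties at 28 against 14 DAA it changed by 0.53, against -1.89 for Ta.27712.1.S1_at, -1.85 for Ta.27777.1.S2_at and -2.79 for Ta.27777.1.S2_s_at (permutation test, adjusted p = 0.00105, 0.00394 and 0.00105). At 14 against 7 DAA it changed by 1.31, against 4.80 for Ta.27777.1.S2_at (permutation test, adjusted p = 0.00707), and the pairs with Ta.27712.1.S1_at (3.70) and Ta.27777.1.S2_s_at (3.95) did not pass (adjusted p = 0.113 and 0.110). Its correlation with the other 3 over the 36 arrays was 0.44 to 0.63, whereas theirs with each other was 0.95 to 0.98. Those 3 were listed by the study for a large difference on these arrays, and Ta.27777.1.S1_at was not. The 3 calls at 28 against 14 DAA held after cyclic loess normalization and without the 6 arrays labelled Lok1 7 DAA and WH291 14 DAA. With the 3 arrays of Lok1 14 DAA also left out, which was chosen after seeing the data, Ta.27777.1.S1_at changed by 0.53, against -1.84, -1.49 and -2.80 for the others in the same order, and the 3 calls were lost (permutation test of 12 against 6 arrays, adjusted p = 0.0868, 0.143 and 0.0852), as were the other 14 of the 17 calls in these tests. The call at 14 against 7 DAA was lost after cyclic loess.

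Apart from these pairs, changes with stage pooled over the 4 varieties had the same sign in both probe sets of a pair, and not every gap was called. Single varieties did not all follow the pooled change. Ta.2415.1.S1_at averaged 1.66 at 7 DAA and 0.66 at 14 DAA in C306, against -5.33 and -0.44 in WH291. In Lok1 Ta.27712.1.S1_at averaged 0.36 at 7 DAA and 0.34 at 14 DAA, against 0.20 and 1.48 for Ta.27777.1.S2_at. The changes below are pooled. The 3 other ALP probe sets differed by 0.85 to 1.10 in 4 called tests. After cyclic loess the gaps of Ta.27777.1.S2_at at 14 against 7 DAA grew, to -3.53 where Ta.27712.1.S1_at stood first (-1.10 before) and to 2.59 over Ta.27777.1.S2_s_at (0.85 before, a call lost without the 6 arrays labelled Lok1 7 DAA and WH291 14 DAA). At 28 against 14 DAA, TaAffx.42864.3.S1_x_at changed by -3.05 and Ta.905.2.S1_at, of the same UniGene cluster, by -1.97 (permutation test, adjusted p = 0.0116). Ta.905.2.S1_at and Ta.905.2.S1_x_at of LOC780582 had a correlation of 0.99 and a gap of -0.44 at 14 against 7 DAA, which was called but turned to 0.18 and was lost after cyclic loess, and of 0.03 at 28 against 14 DAA, which was not called. For Ta.23142, Ta.23142.4.S1_s_at changed less than Ta.23142.11.S1_x_at at both steps (5.08 against 5.90 and -1.61 against -1.94), with the call of the first step lost after cyclic loess. In the Ta.2415 series, Ta.2415.1.S1_at changed by 1.71 at 14 against 7 DAA and its 3 fellows by 0.41 to 0.67, gaps of 1.04 to 1.30 that turned to between -0.92 and -0.85 after cyclic loess, where that with Ta.2415.2.S1_x_at was called in the other direction. The single call between classes was Ta.2415.2.S1_a_at against Ta.2415.2.S1_x_at at 14 DAA, 1.08 against 0.61 (exact permutation test of 6 good and 6 poor arrays, adjusted p = 0.0406), and it was lost after cyclic loess and without those 6 arrays. Of the 17 calls, 9 kept their direction and call after cyclic loess and 13 without the 6 arrays. The 17 calls became 8, 7 and 11 without all arrays of replicate 1, 2 and 3, and the 14 against 7 DAA tests share the arrays on which the study chose its list.

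Among probe sets with a gene name or a function in the study's list, 5 outside the members were the most like the mean profile of the 14 over the 36 arrays. The first was Ta.905.2.S1_x_at, the second probe set of the avenin-like a gene LOC780582 (r = 0.97). Next came Ta.23141.3.S1_x_at for a dimeric alpha-amylase inhibitor (r = 0.97), which protects grain starch from insect enzymes. The others were Ta.30782.2.S1_a_at and Ta.24114.14.S1_x_at for gamma-gliadins (r = 0.96 each). With them was Ta.24969.1.S1_s_at for a low-molecular-weight glutenin subunit (r = 0.96), a building block of the gluten polymer. All but Ta.905.2.S1_x_at are in the study's list, as are most members. That list was chosen on these same arrays for a large difference between good and poor varieties. Such a choice favours likeness, so nothing is read from the correlations or ranks of the listed probe sets.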

How the data were processed

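RNA from developing seeds of 4 wheat varieties at 7, 14 and 28 DAA was measured on 36 Affymetrix arrays, 3 for each variety and stage. The log2 values are those the authors deposited, RMA signals from GeneSpring that were then centred on the median of each probe set over the arrays, which was checked and is 0. Their methods give the filter used here, which keeps a probe set when some group of quality and stage has all 6 of its arrays at or above the 20th percentile of the array. It acted on centred values, so not on the level of the signal, and the number of arrays limits the precision. It can be met through the one group where a member is high.

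Members were found by the words avenin in the study's list and ALP in the array's annotation, which gives 1 gene symbol for 1273 probe sets, 1272 of them matched in RefSeq's gene table. The members, the tests and the other lists (gluten genes, markers and controls) were chosen with earlier results of these data known. The planned lists of storage protein regulators, of disulphide and folding genes and of green pericarp held 0 probe sets, and the 3 globulins had medians of -7.33 to 0.90 at 7 DAA and -4.88 to 1.80 at 28 DAA. Every member is named, with the 5 probe sets most like their mean profile. Of positions, the chromosome and RefSeq gene order were used, and no sequences or coordinates were.

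Stages and varieties were compared in a limma 3.58.1 model of 12 groups (R 4.3.3), good and poor varieties in one of 6 groups, with Benjamini-Hochberg adjustment over 60130 probe sets. On simulated data for WH291 at 28 against 14 DAA over 60130 probe sets, 70% of log2 changes of 1 were recovered. Of those of 2, 4 and 6, 98% were. These rates need not hold for the members, whose SD had a median of 1.08 in WH291 at 14 DAA and 1.15 at 28 DAA. Among them a difference of 2.93, for C306 minus Sonalika at 14 DAA, did not pass the test. A member without a call was thus not shown to be unchanged. Probe sets of one gene were compared by permuting arrays, exactly for 6 against 6 arrays (smallest p = 0.00216) and with 100000 draws for 12 against 12. Figures were drawn with matplotlib 3.10.9, and permutations were run in numpy 2.4.6 (Python 3.11.15). Alternatives were no filter, cyclic loess, array weights, a replicate block, fits of the compared groups alone, the ANOVA contrast of the methods, and leaving out each array or the 6 labelled WH291 14 DAA and Lok1 7 DAA. Like the filter, cyclic loess acted on centred values and not on the level of the signal, so its results are given as a description.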

Additional observations from a re-analysis of the deposited data

Results flagged for a closer look

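Among 84 groups of 6 arrays, 4 held a value far from the other 5 of its quality class and stage, where chance flags about 1 in 20 groups. A pair of them belonged to replicate 3 of C306 at 7 DAA, where Ta.27712.1.S1_at of the ALP gene read -2.03, against -0.02 to 0.96 on the other good arrays, and TaAffx.42864.3.S1_x_at, avenin-like a6, read -0.22, against 1.71 to 2.47. On replicate 3 of Sonalika at 7 DAA, Ta.2415.2.S1_a_at read 1.21, against -2.88 to -1.76 on the other poor arrays. On replicate 3 of WH291 at 14 DAA, Ta.2448.1.S1_at read 0.57, against 1.40 to 1.79 on the other poor arrays.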

How the results depend on the processing

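Over 20 results, 82 of 108 alternatives gave a count or median within 1.5 times the reported one. All but the 7 DAA median are counts, which cannot reverse, and that median kept its sign. Other medians turned after cyclic loess, to -1.42 in C306 at 14 against 7 DAA and to 0.56 and 0.60 for C306 minus Lok1 at 7 and 14 DAA. With array weights 5 members were called in C306 at 14 against 7 DAA, 5 in C306 and 2 in Sonalika at 28 against 14 DAA, 7 for C306 minus Lok1 at 28 DAA, and 3, 3 and 8 for Sonalika minus WH291 at 7, 14 and 28 DAA. The 4 comparisons of a good with a poor variety then gave 20 calls and the changes between varieties 2. With the compared groups alone in the fit, 5 members were called in C306 and 1 in Sonalika at 28 against 14 DAA, 2 for C306 minus Lok1 at 28 DAA, 0 and 2 for Sonalika minus WH291 at 7 and 14 DAA, and 13 over the 4 comparisons. After cyclic loess 5 and 7 members were called in Sonalika and WH291 at 14 against 7 DAA, 1 in Sonalika at 28 against 14 DAA, 0 and 1 for Sonalika minus WH291 at 7 and 14 DAA, and 11 tests of probe sets of one gene. Without the 6 arrays labelled Lok1 7 DAA and WH291 14 DAA 1 member, Ta.9799.1.S1_at, was called in Sonalika at 28 against 14 DAA, and comparisons that need these groups could not be given. With the 3 arrays of Lok1 14 DAA also left out, 0 tests of probe sets of one gene were called. The median good minus poor difference at 7 DAA was 0.67 for the member outside the study's list alone. The cause was not tested.

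With the replicate number as a block, 1 member was called in Sonalika at 28 against 14 DAA and 1 for Sonalika minus WH291 at 14 DAA, and other counts stayed within 1.5 times. Same-numbered arrays did not deviate together on average (mean correlation -0.00 over 198 pairs, 41 above 0.1). Such a mean cannot exclude a block shared by some of the arrays. All 4 values flagged above lay on arrays of replicate 3, the cause of which was not tested.

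Leaving out each array in turn gave, at 14 against 7 DAA, 1 to 2 calls in C306, 1 in Lok1, 8 to 14 in Sonalika and 11 to 14 in WH291. At 28 against 14 DAA it gave 1 to 4 in C306, 2 to 13 in Lok1, 0 to 1 in Sonalika and 4 to 12 in WH291, and 0 to 5 for the changes between varieties. C306 minus Lok1 had 0 calls at 7 and 14 DAA and 0 to 7 at 28 DAA, and Sonalika minus WH291 0 to 5 at 7 DAA, 0 at 14 DAA and 2 to 6 at 28 DAA. The 4 comparisons gave 1 to 12, good minus poor 0 at 14 and 28 DAA, the median at 7 DAA was 5.35 to 6.58, and the tests of probe sets of one gene gave 7 to 11. With 3 arrays in a group, of which 1 often stood apart, counts of calls are imprecise. Array signals are centred, so a signal near background could not be told from a low one.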
